A study of Mus musculus with 22 samples.

Results

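The 34 genes described here are direct transcriptional targets of the tumour suppressor p53. They were taken by name from a list of targets in apoptosis, growth arrest, DNA repair and metabolism. No cutoff on a measured value was applied, but earlier results of these data were known when the list was chosen. All 34 had a probe on the array and all 34 were tested, out of 22911 genes with a symbol, of which 17404 were tested. p53, the product of Trp53, is a transcription factor that damaged DNA and oncogenes stabilise, and it binds as a tetramer to paired copies of a short DNA half-site near its targets. The products of these targets stop division, repair DNA, adjust metabolism or start apoptosis. Missense mutations in the DNA-binding domain impair this activity, and Trp53 is often mutated in bladder cancer.

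The samples were total RNA of mouse bladders, each read on 1 one-colour Agilent array, 22 arrays in 8 groups. The bladder carcinogen BBN, in full N-butyl-N-(4-hydroxybutyl)nitrosamine, was in the drinking water of 7 groups (19 arrays) for 24 weeks from 2 months of age, and all mice were sampled at 8 months. The 4 mutant groups carried 1 Trp53 R270H or R172H missense allele, a red fluorescent reporter behind a stop cassette (LSL-RFP) and CreERT2, a recombinase that tamoxifen activates, and they received tamoxifen as well as BBN. CreERT2 was driven by the Krt5 promoter, which is active in basal urothelial cells, in Krt5-Cre R270H (3 arrays) and Krt5-Cre R172H (4 arrays). It was driven by the Upk2 promoter, which is active in luminal urothelial cells, in Upk2-Cre R270H (2 arrays) and Upk2-Cre R172H (3 arrays). The Trp53 het group (3 arrays) received BBN with neither Cre nor tamoxifen, and its titles give Trp53+/- while its genotype entry names the R270H allele. The Cre controls, Krt5-Cre (2 arrays) and Upk2-Cre (2 arrays), carried the same CreERT2 transgenes and reporter with no Trp53 mutation listed, and received tamoxifen and BBN. The normal group (3 arrays) was wild type with neither tamoxifen nor BBN. Whether BBN itself mutated Trp53 in any of these bladders was not analysed here.

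On each array 42.4% to 63.2% of 59305 spots were well above background and 0 were saturated. The share was 42.4% to 57.2% on the 11 arrays of scanner model G2505C and 56.3% to 63.2% on the 11 of model G2600D. The normal arrays sat alone on 1 of the 4 slides, so slide and normal tissue cannot be told apart. All 3 normal arrays were read by scanner model G2600D and 11 of the 19 BBN arrays by model G2505C. Scanner model is thus partly tied to the comparison of BBN with normal bladders. Xist and Y-chromosome RNA did not match the labelled sex of 11 arrays, among them all 3 normal and all 4 Krt5-Cre R172H arrays. The labels do not say that every array is a separate animal, and in the Upk2-Cre and Trp53 het groups 2 arrays share an animal code, so p-values measure the spread between these samples. On Upk2-Cre replicate 1 Xist was above background and 0 Y-chromosome genes were. On Upk2-Cre replicate 2 Xist was not above background and 4 Y-chromosome genes were. Despite the shared code, these 2 Upk2-Cre arrays thus did not hold RNA of the same animal. The normal tissue is labelled urothelium, but the protocol names whole bladders and 9 of 10 smooth muscle markers were above background on all 3 normal arrays. In such bulk RNA, fewer cells of a type and less RNA per cell cannot be told apart.

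Levels below are log2 signal relative to the 75th percentile of the same array, so a level of 0 equals that percentile and a log2 difference of 1 is a 2-fold difference. Levels of different genes come from different probes and are not set against each other. A gene was called changed where the limma p, adjusted over all genes tested (Benjamini-Hochberg), did not exceed 0.05.

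The first comparison asked how the target genes differed after the carcinogen course, whatever the genotype. In BBN bladders, against normal bladders, 16 of the 34 targets were called, 8 higher and 8 lower. The higher ones were Gdf15, Dram1, Pmaip1, Epha2, Sfn, Phlda3, Pidd1 and Ercc5, and the lower ones Cyfip2, Gadd45a, Ccng1, Btg2, Ei24, Polk, Ddb2 and Xpc. Over all genes 42.7% were called, 23.7% higher and 19.0% lower, so the share of targets called was near the background. The median log2 difference was 0.01 over the targets and 0.13 over all genes tested. The genes did not move as a block: p53 targets with the same role were found on both sides of 0. By role, 3 of 15 apoptosis and autophagy genes were called higher and 2 lower, 4 of 11 growth and signalling genes higher and 3 lower, 1 of 5 repair genes higher and 3 lower, and 0 of 3 metabolic genes.

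**Figure D1:**
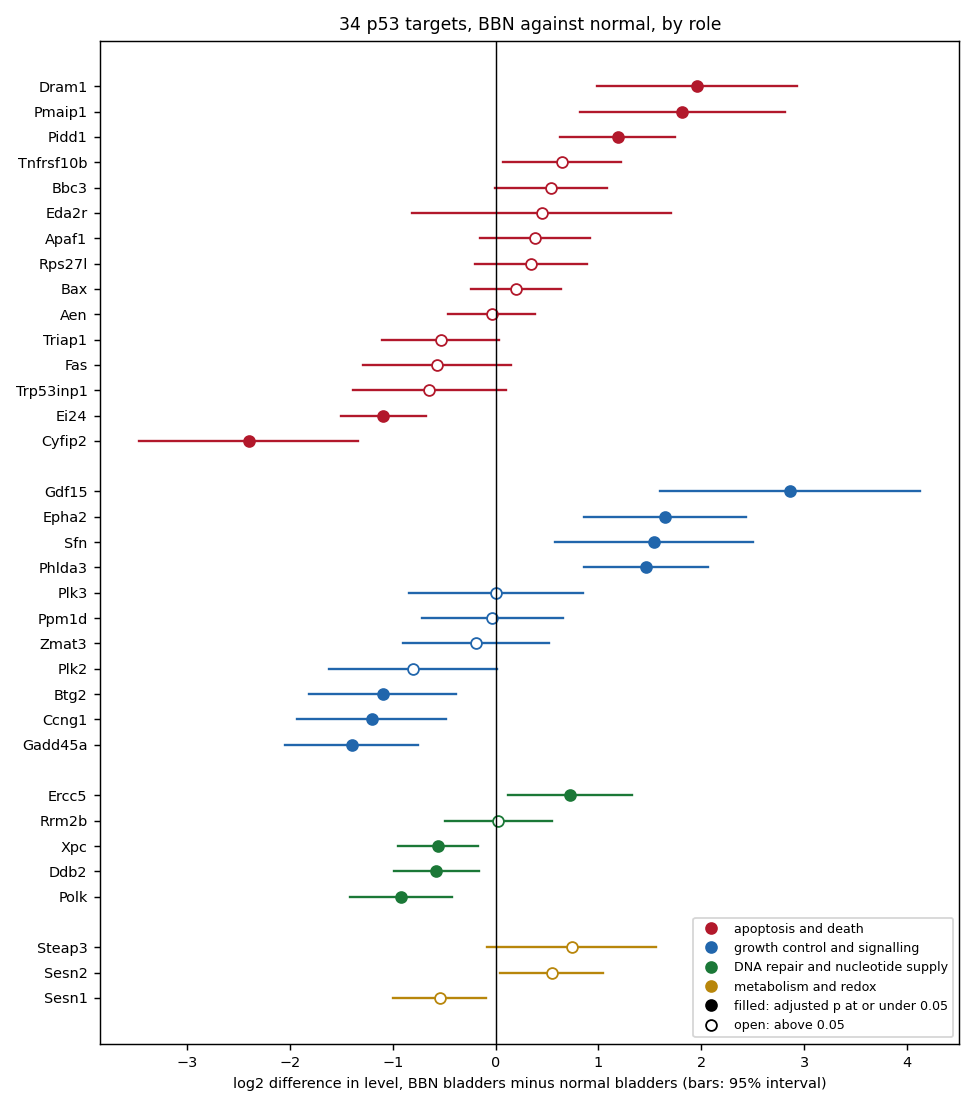
Log2 difference of BBN bladders (7 group means weighted alike) minus normal bladders for each of the 34 targets, ordered by role, with the 95% interval from limma; filled points were called. Gdf15, at 2.86, and Cyfip2, at -2.40, lie at the 2 ends.

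Among the apoptosis genes, Pmaip1 (Noxa), a BH3-only protein that disables anti-apoptotic Bcl-2 relatives, had levels of 1.32 at the lowest, 3.11 at the median and 4.09 at the highest on the 19 BBN arrays, and of 1.28, 1.04 and 1.25 on the normal arrays. Every BBN array lay above every normal array, and the log2 difference was 1.82 (SE 0.47, adjusted p = 0.00574). Pidd1, a scaffold that activates caspase-2, spanned -2.27 to -0.76 with a median of -1.54 on BBN arrays, against -2.77, -2.70 and -2.51 on normal arrays. Its groups did not overlap either (log2 difference 1.19, SE 0.26, adjusted p = 0.00198). Dram1, a lysosomal membrane protein that promotes autophagy, spanned -3.49 to -0.43 with a median of -1.89 on BBN arrays, against -3.42, -3.88 and -3.87 on normal arrays. All BBN arrays but Upk2-Cre R172H replicate 3 lay above the normal arrays, with a log2 difference of 1.96 (SE 0.46, adjusted p = 0.00287).

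On the lower side, Ei24, a membrane protein of the endoplasmic reticulum needed for autophagy, spanned 0.94 to 2.14 with a median of 1.35 on BBN arrays, against 2.50, 2.62 and 2.35 on normal arrays. Every BBN array lay below every normal array, and the log2 difference of -1.09 had the smallest p of all 34 targets (SE 0.20, adjusted p = 0.000380). Cyfip2, a subunit of the WAVE complex that controls actin branching, spanned -4.52 to -1.22 with a median of -3.06 on BBN arrays, against -0.37, -0.14 and -0.42 on normal arrays. Again no array overlapped, and the log2 difference was -2.40 (SE 0.50, adjusted p = 0.00130). The Cyfip2 probe was well above background on all 3 normal but only 15 of 19 BBN arrays, so the sizes of its differences here and below rest partly on background.

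The other 10 genes of this role were not called. Bax, which forms pores in the outer mitochondrial membrane, differed by 0.20, and its levels of 2.41 to 3.49 on BBN arrays covered the 2.61, 2.96 and 2.53 of normal arrays. Bbc3 (Puma), another BH3-only protein, differed by 0.54 (95% interval -0.01 to 1.08, adjusted p = 0.101). The death receptor Tnfrsf10b differed by 0.64 (95% interval 0.07 to 1.22, adjusted p = 0.0655), while the death receptor Fas differed by -0.57. The remaining ones, Eda2r, a receptor of the tumour necrosis factor family, Apaf1, the scaffold of the apoptosome, the nuclease Aen, the p53 cofactor Trp53inp1, the apoptosis inhibitor Triap1 and the ribosomal protein relative Rps27l, differed by -0.64 to 0.45.

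Among the growth and signalling genes, Gdf15, a secreted stress cytokine, had the largest rise of the 34 targets. Its levels spanned -3.92 to 0.08 with a median of -2.0 on BBN arrays, against -4.69, -4.66 and -4.81 on normal arrays. The groups did not overlap, with a log2 difference of 2.86 (SE 0.60, adjusted p = 0.00126), and the probe was well above background on 17 of 19 BBN and on all 3 normal arrays. Phlda3, which competes with the kinase Akt for membrane lipids, spanned 5.06 to 7.0 with a median of 5.90 on BBN arrays, against 4.32, 4.8 and 4.36 on normal arrays. All BBN arrays lay above all normal arrays (log2 difference 1.46, SE 0.28, adjusted p = 0.000733).

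Epha2, a receptor for ephrin ligands, spanned 2.64 to 5.0 with a median of 4.17 on BBN arrays, against 2.52, 2.21 and 2.99 on normal arrays. Only Krt5-Cre R172H replicate 3 fell within the normal range, and the log2 difference was 1.65 (SE 0.37, adjusted p = 0.00219). Sfn, the epithelial 14-3-3 protein that retains cyclin-dependent kinase complexes in the cytoplasm, spanned 7.10 to 9.64 with a median of 8.05 on BBN arrays, against 6.85, 6.78 and 6.49 on normal arrays. Its groups did not overlap, with a log2 difference of 1.54 (SE 0.45, adjusted p = 0.0123). Sfn lost this call without normal replicate 3 (log2 difference 1.43, adjusted p = 0.0655) and in the fit blocked by scanner model (0.64, adjusted p = 0.115).

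Gadd45a, a stress sensor that acts on growth arrest and repair, was lower in BBN bladders. Its levels spanned -0.59 to 1.39 with a median of 0.51 on BBN arrays, against 1.66, 2.13 and 1.62 on normal arrays, without overlap. The log2 difference was -1.40 (SE 0.31, adjusted p = 0.00177). Ccng1 (cyclin G1), which recruits a phosphatase to the p53 inhibitor Mdm2, spanned 0.08 to 2.61 with a median of 0.82 on BBN arrays, against 2.19, 2.42 and 1.98 on normal arrays. All but Upk2-Cre R172H replicate 3 lay below the normal arrays (log2 difference -1.21, SE 0.34, adjusted p = 0.00977). This call ended without normal replicate 2 (log2 difference -1.10, adjusted p = 0.0593) and in the fit blocked by scanner model (-0.98, adjusted p = 0.0681).

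Btg2, an antiproliferative partner of the CCR4-NOT deadenylase complex, spanned 0.25 to 2.32 with a median of 1.42 on BBN arrays, against 1.52, 3.18 and 3.11 on normal arrays. The groups overlapped, and the log2 difference of -1.10 (SE 0.34, adjusted p = 0.0155) became -0.81 without normal replicate 2 (adjusted p = 0.131) and -0.84 without normal replicate 3 (adjusted p = 0.124), neither of which was called. The kinases Plk2 and Plk3, the phosphatase Ppm1d (Wip1), which resets the damage response, and Zmat3, an RNA-binding regulator of splicing, were not called. Plk2 differed by -0.80 (95% interval -1.62 to 0.01) and the other three by -0.19 to 0.00.

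Of the repair genes, Polk, a polymerase that copies past bulky DNA adducts, spanned -1.47 to 0.04 with a median of -0.96 on BBN arrays, against 0.12, 0.20 and 0.23 on normal arrays. Every BBN array lay below every normal array, with a log2 difference of -0.92 (SE 0.24, adjusted p = 0.00521). Without the BBN arrays whose RNA went against the sex label, Polk differed by -0.65 and was not called (adjusted p = 0.0605). Xpc and Ddb2, which find damage for nucleotide excision repair, differed by -0.56 (SE 0.18, adjusted p = 0.0214) and -0.58 (SE 0.20, adjusted p = 0.0266). Xpc levels reached from -0.02 to 1.06 on BBN arrays, against 0.87, 1.02 and 0.87 on normal arrays, and Ddb2 levels from -1.10 to 0.19 on BBN arrays, against 0.15, 0.19 and 0.40 on normal arrays. Both sets overlapped, and each call ended when any 1 of the 3 normal arrays was left out, with adjusted p of 0.0647 to 0.0996 for Xpc and 0.0656 to 0.133 for Ddb2.

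Ercc5 (XPG), the endonuclease that makes the 3′ incision of nucleotide excision repair, was the only repair gene called higher. It spanned -1.0 to 0.60 on BBN arrays, against -0.90, -1.0 and -0.78 on normal arrays, a log2 difference of 0.72 (SE 0.28, adjusted p = 0.0492). The groups overlapped, and the call ended in 17 of 22 fits that each left out 1 array, where the adjusted p ran from 0.0279 to 0.157. Rrm2b, the p53-controlled subunit of ribonucleotide reductase, differed by 0.03, and its probe was above background on 13 of 19 BBN arrays.

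The metabolic genes were not called in BBN against normal bladders. Sesn1 and Sesn2 encode sestrins, which restrain mTORC1, and differed in opposite directions. Sesn1 differed by -0.54 (95% interval -0.99 to -0.09, adjusted p = 0.0504), and Sesn2 by 0.54 (95% interval 0.04 to 1.05, adjusted p = 0.0749). Steap3, an iron reductase of endosomes, differed by 0.74 (adjusted p = 0.132).

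**Figure D2:**
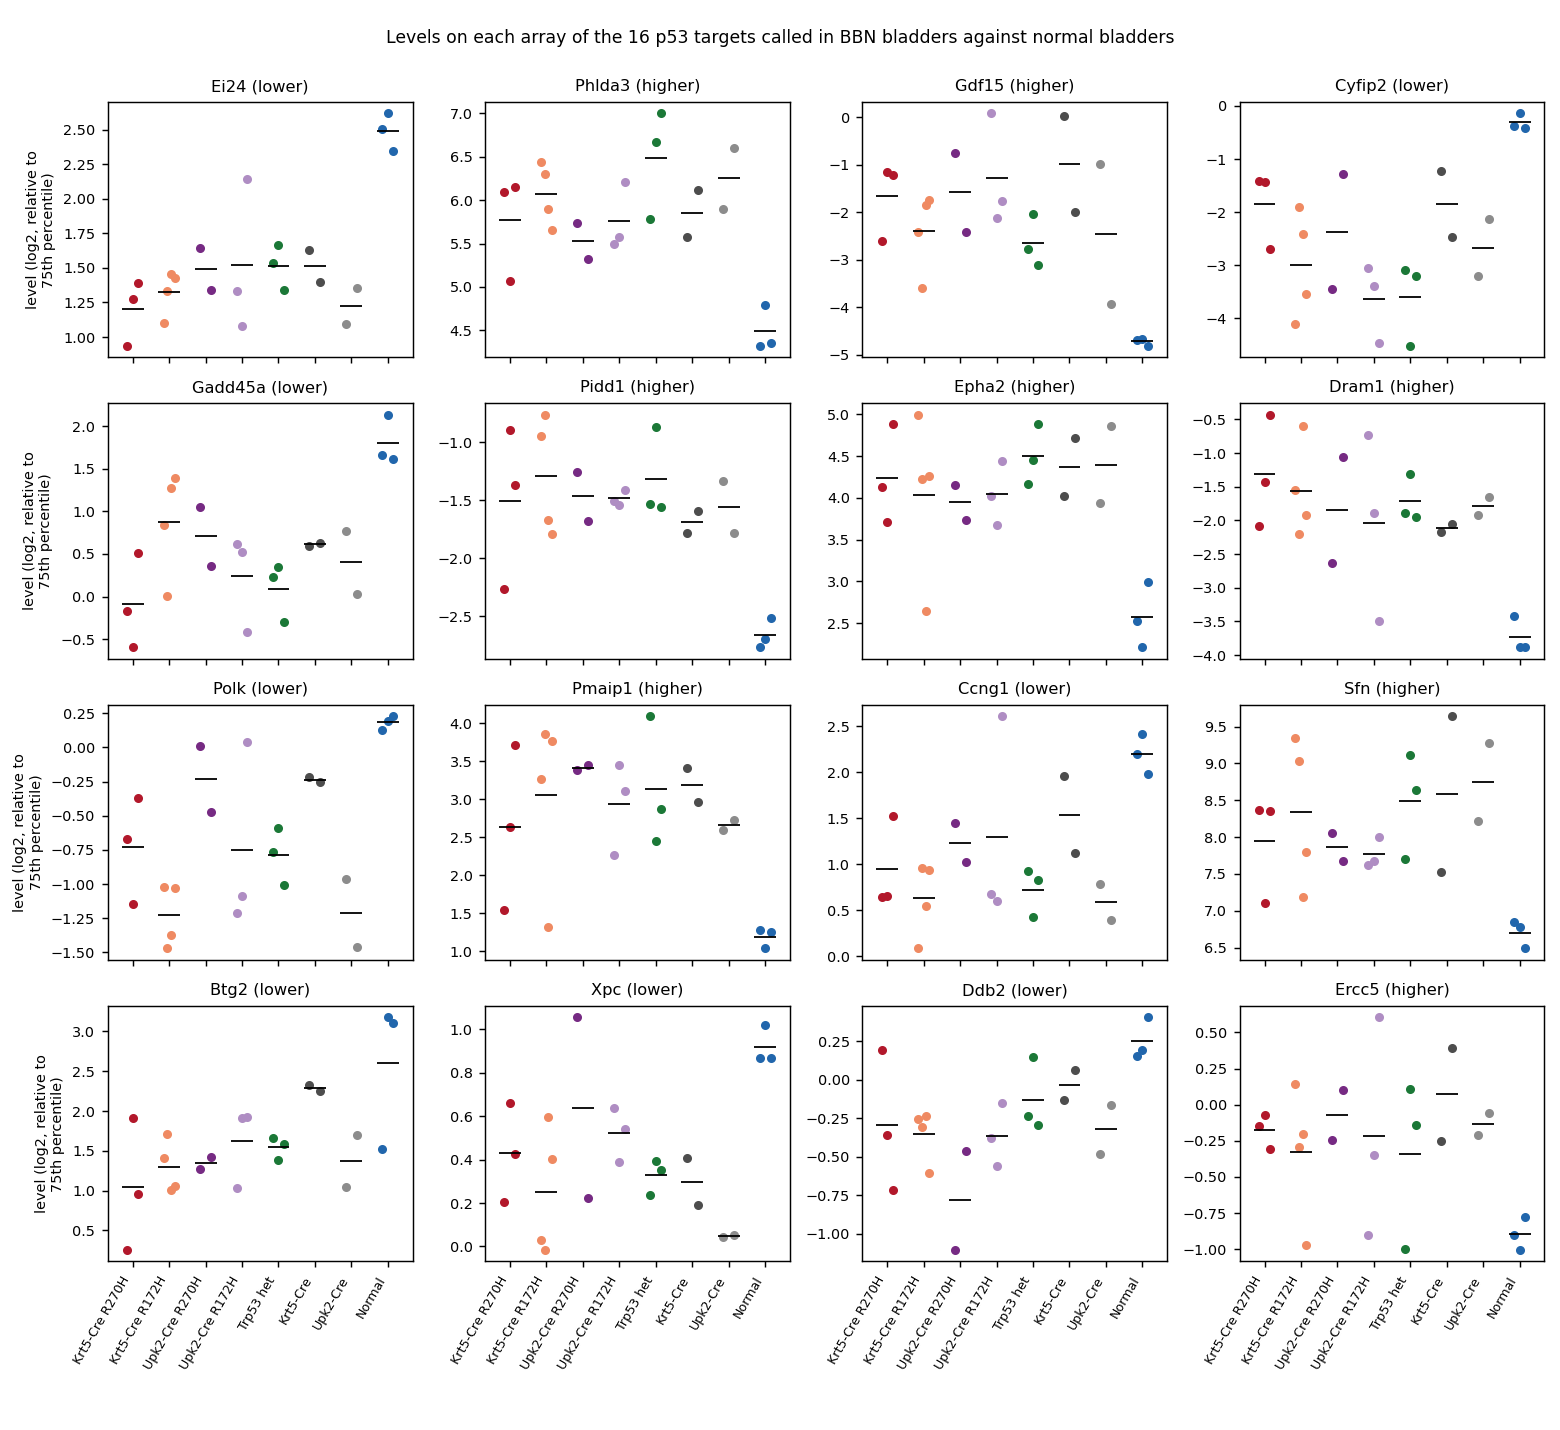
Level of each of the 16 called targets on every array (log2 signal relative to the array's 75th percentile), with 1 dot per array, 1 column per group and a bar at the group mean. In each panel all 7 BBN group means lie on 1 side of the normal mean.

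Counted over arrays, all 19 BBN arrays lay above all 3 normal arrays for 5 targets and below them for 4. Over all genes the same held for 13.6% above and 12.0% below. All 7 BBN group means lay on the same side of the normal mean for each of the 16 called targets, as for 98.9% of all genes called, and for 10 of the 18 other targets, as for 45.5% of the other genes. The normal group had the highest mean of the 8 groups for 12 targets (29.9% of all genes) and the lowest for 14 (38.5% of all genes).

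Cell type markers moved with the same comparison, and their part in these differences was not tested. The summed level of 12 urothelial markers was 6.26 to 8.24 on BBN arrays and 10.12 to 10.47 on normal arrays (11 called lower). That of 14 basal and squamous markers was 9.63 to 12.04 on BBN arrays and 6.82 to 7.19 on normal arrays (12 called higher, 1 lower), and Dsg3, Krt6b and Sprr3 were above background on no normal array. The smooth muscle sum was 6.73 to 10.23 on BBN arrays and 5.94 to 6.79 on normal arrays (9 of 10 called higher), and the fibroblast sum 4.68 to 8.24 on BBN arrays and 8.69 to 8.99 on normal arrays (6 of 9 called lower). The leukocyte sum was 4.71 to 8.22 on BBN arrays and 4.69 to 4.88 on normal arrays (5 of 14 called higher), and the cell cycle sum 5.62 to 7.91 on BBN arrays and 3.40 to 3.77 on normal arrays (15 of 16 called higher).

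Promoter windows were read for the targets to show the p53 half-sites near their starts. RefSeq (GRCm38.p6) gave a window from 250 bases before to 50 bases after the start for 27 of the 34 targets, all but Pmaip1, Zmat3, Rrm2b, Xpc, Ddb2, Tnfrsf10b and Trp53inp1. The 10-base p53 half-site, which reads alike on both strands, was matched exactly in 9 of the 27 windows (33.3%) and in 9.55% of 27025 gene windows. It stood in 4 of the 6 windows of targets called lower in BBN bladders (Ei24, Gadd45a, Ccng1 and Polk), in 0 of the 7 of targets called higher, and in 5 of the 14 of targets not called (Bax, Aen, Rps27l, Ppm1d and Sesn1). Over all genes tested it stood in 8.84% of the windows of genes called lower, in 9.28% of those called higher and in 8.74% of those not called. The lower call of Polk came from its brightest probe alone, and the counts by direction are small and were not tested. The full site of 20 bases, with at most 1 mismatch, was found for Rps27l and Ccng1, and in 0.107% of all gene windows. A match describes these letters only and is not a measured binding site. The windows of the 4 lower targets and of Rps27l are printed around the match, 5′ to 3′ on the strand of the gene, with the half-site in capitals.
Ei24: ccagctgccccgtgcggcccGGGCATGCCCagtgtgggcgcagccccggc
Gadd45a: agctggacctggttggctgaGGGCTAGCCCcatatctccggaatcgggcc
Ccng1: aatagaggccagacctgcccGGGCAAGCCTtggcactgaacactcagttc
Polk: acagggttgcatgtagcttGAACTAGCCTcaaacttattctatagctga
Rps27l: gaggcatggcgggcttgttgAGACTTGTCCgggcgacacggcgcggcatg
These stretches are chr9:36797315-36797364 for Ei24, chr6:67037418-67037467 for Gadd45a, chr11:40755442-40755491 for Ccng1 and chr13:96519389-96519437 for Polk, all on the minus strand, and chr9:66946286-66946335 on the plus strand for Rps27l.

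Each value above rests on the brightest probe of a gene, and 15 targets had 2 or more tested probes. In BBN against normal bladders, 9 of these gave the same call with every probe. Ei24 was lower with both probes (-1.09 and -1.45), as were Btg2 (-1.10 and -1.60) and Ddb2 (-0.58 and -0.91). For 6 targets the calls differed between probes. Xpc was lower with its brightest probe (-0.56) and differed by 0.55 with another, Pidd1 was higher with its brightest probe (1.19) and differed by -0.04 with another, and Polk was lower with its brightest probe (-0.92) and differed by -0.01 and 0.05 with others. Apaf1 and Tnfrsf10b were called higher with a dimmer probe (1.40 and 1.38) and not with the brightest (0.38 and 0.64).

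Ppm1d differed most between probes. Its brightest probe gave -1.88 to -0.01 on BBN arrays, against -0.82, -0.66 and -0.88 on normal arrays, a log2 difference of -0.03. Its other probe gave -1.64 to 0.34 on BBN arrays, against -2.43, -2.07 and -2.29 on normal arrays, a log2 difference of 1.54 that was called. Whether Ppm1d was called therefore depends on the probe.

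**Figure D3:**
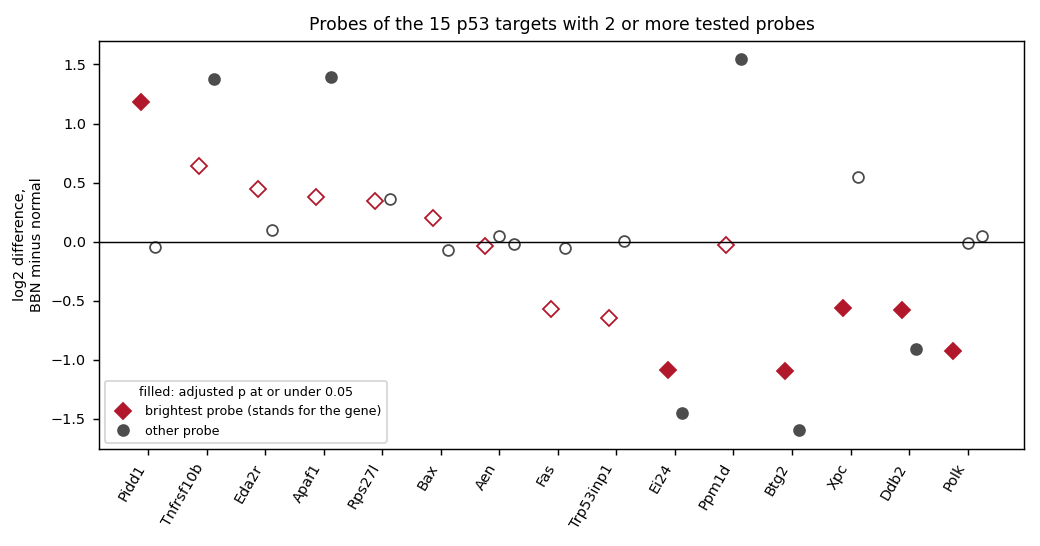
Log2 difference of BBN minus normal bladders for every tested probe of the 15 targets that have 2 or more, with 1 point per probe; red diamonds mark the brightest probe, grey circles the others, and filled points were called. Probes of Ei24, Btg2 and Ddb2 lie on the same side of 0, and those of Ppm1d, Xpc and Pidd1 lie apart.

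Other genes of the p53 pathway were read beside the targets, from lists chosen with earlier results of these data known. Cdkn1a (p21), which inhibits cyclin-dependent kinases, spanned 0.27 to 3.38 with a median of 1.98 on BBN arrays, against 0.42, 1.13 and 0.47 on normal arrays, and was called higher (log2 difference 1.43, adjusted p = 0.0165). Mdm2, the ubiquitin ligase that degrades p53 and is also its target, spanned 2.79 to 3.75 with a median of 3.03 on BBN arrays, against 3.29, 3.49 and 3.36 on normal arrays, and was not called (log2 difference -0.27, adjusted p = 0.297). Of 15 further targets, Ckap2 (2.98), Psrc1 (2.85) and Cdkn1a were called higher, and Ninj1 (-0.65) and Bcl2l1 (-0.53) lower. Of 16 regulators of p53, 4 were called higher and 1 lower. The higher ones were Cdkn2a (7.02), whose Arf product blocks Mdm2, the p53 relative Trp73 (3.69), the checkpoint kinase Chek1 (3.48) and the acetyltransferase Ep300 (0.75), and the lower one was the damage kinase Atm (-0.68). Trp73 and Chek1 were above background on 1 of the 3 normal arrays.

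The 3 kinds of BBN bladder were then each set against the same 3 normal bladders, so these comparisons share their controls and are given side by side. Mutant bladders (4 groups) had 15 targets called, 7 higher and 8 lower, with 39.1% of all genes called (21.2% higher and 17.8% lower). Trp53 het bladders had 12 called, 7 higher and 5 lower, with 31.0% of all genes called (17.5% higher and 13.5% lower). Cre control bladders had 13 called, 7 higher and 6 lower, with 32.6% of all genes called (18.2% higher and 14.4% lower). In all 3 kinds the share of targets called was again near that of all genes. The count in Cre control bladders was 5 without Krt5-Cre replicate 2 or normal replicate 2, and 7 without Upk2-Cre replicate 2 or normal replicate 3. The count in Trp53 het bladders was 6 without normal replicate 2 and 7 without normal replicate 3.

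The same 11 targets (of 34) were called in the same direction in all 3 kinds, as were 23.8% of all genes, and the shared normal arrays tie the 3 calls together: Pmaip1, Pidd1, Dram1, Sfn, Phlda3 and Epha2 higher, and Ei24, Cyfip2, Ccng1, Gadd45a and Polk lower. Pmaip1 differed from normal by 1.82 in mutant, 1.95 in Trp53 het and 1.74 in Cre control bladders. Ei24 differed by -1.10 in mutant, -0.98 in Trp53 het and -1.12 in Cre control bladders. These values lay close together. Phlda3 differed by 1.29 in mutant, 1.99 in Trp53 het and 1.55 in Cre control bladders, and Cyfip2 by -2.40 in mutant, -3.29 in Trp53 het and -1.95 in Cre control bladders. Leaving out any 1 array ended no call of Phlda3, Epha2 or Ei24 in the 3 kinds, but other settings ended some. Epha2 was not called in mutant bladders in the fit blocked by scanner model (0.96, adjusted p = 0.0675), nor with scanner model G2600D only in Trp53 het (1.60, adjusted p = 0.113) and Cre control bladders (1.41, adjusted p = 0.0602). Ei24 was not called in Trp53 het bladders with that model only (-0.95, adjusted p = 0.132) or without the BBN arrays that went against their sex label (-0.89, adjusted p = 0.0670). With the mean over its probes Polk was called in none of the 3 kinds, with -0.30 in mutant, -0.38 in Trp53 het and -0.25 in Cre control bladders (adjusted p 0.425 to 0.604). Pidd1, with the mean over its probes, was called in mutant but not in Trp53 het or Cre control bladders. In mutant bladders the call of Sfn ended in 11 of 22 fits that each left out 1 array (adjusted p 0.0504 to 0.146). That of Ccng1 ended there without normal replicate 1 (0.0567) or 2 (0.0784). In Trp53 het bladders calls ended, each time without a Trp53 het or normal array, for Sfn in 5 fits (0.0653 to 0.131), Pmaip1 in 4 (0.0575 to 0.0965), Polk in 4 (0.0578 to 0.0862), Ccng1 in 3 (0.0536 to 0.0788) and Dram1 in 3 (0.0578 to 0.0750). In Cre control bladders they ended for Ccng1 in 14 fits (0.0503 to 0.162), Pmaip1 in 7 (0.0540 to 0.0860), Cyfip2 in 5 (0.0576 to 0.0943), Polk in 5 (0.0589 to 0.0830), Dram1 in 4 (0.0598 to 0.0740), Pidd1 in 4 (0.0635 to 0.0732), Sfn in 3 (0.0522 to 0.0737) and Gadd45a in 2 (0.0578 to 0.0682). Gdf15 was called in mutant (2.99) and Cre control bladders (3.0), and in Trp53 het bladders it differed by 2.08 (adjusted p = 0.0528).

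**Figure D4:**
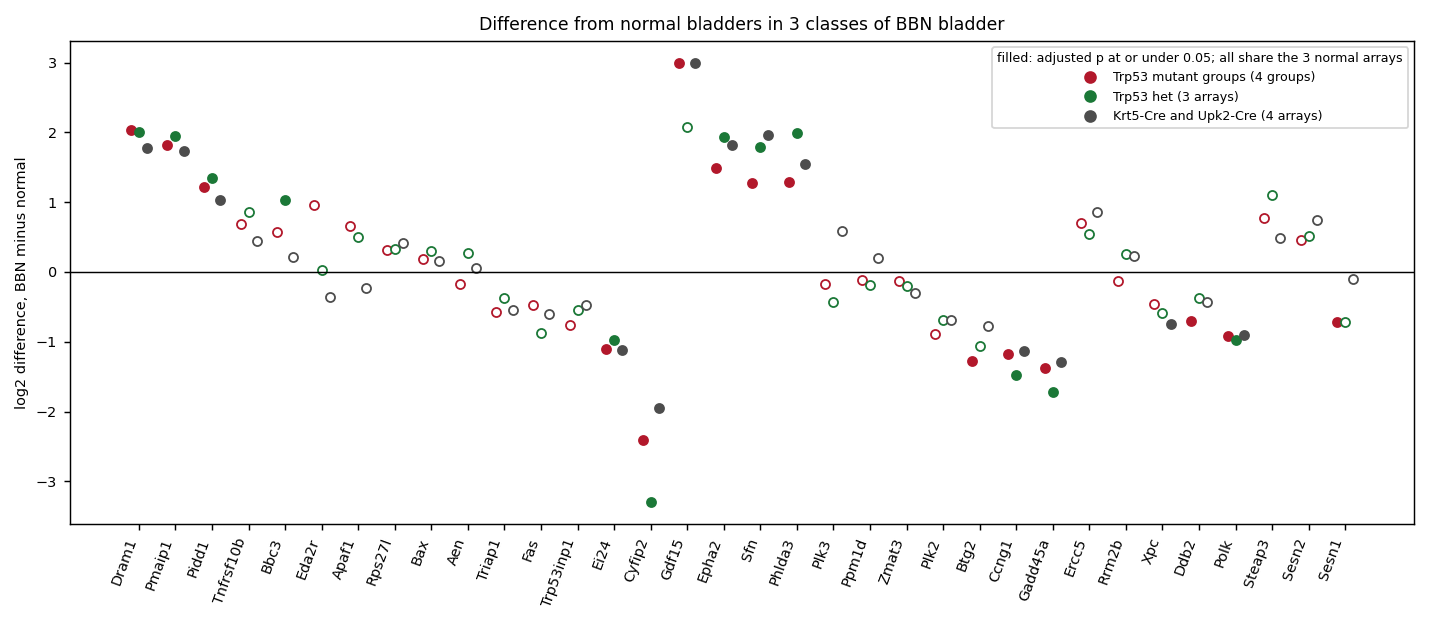
Log2 difference from normal bladders of mutant, Trp53 het and Cre control bladders for each of the 34 targets, with filled points where the target was called. For the 11 targets called in all 3 kinds, the 3 points lie on the same side of 0.

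A further 5 targets were called in 1 kind of BBN bladder. Bbc3 had levels of 0.67, 1.46 and 1.22 in Trp53 het bladders, against 0.01, 0.25 and 0.01 in normal bladders, and was called there (log2 difference 1.03, adjusted p = 0.0292). It differed by 0.57 (adjusted p = 0.0979) in mutant and by 0.22 (adjusted p = 0.614) in Cre control bladders. Its call in Trp53 het bladders ended without Trp53 het replicate 2 (adjusted p = 0.121) or 3 (0.0796), and without normal replicate 1 (0.0822), 2 (0.0521) or 3 (0.0834).

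Sesn1 had levels of 0.88 to 1.80 with a median of 1.2 in mutant bladders, against 1.80, 2.33 and 1.77 in normal bladders, and was called in mutants (log2 difference -0.72, adjusted p = 0.0178). It differed by -0.71 (adjusted p = 0.0627) in Trp53 het and by -0.10 (adjusted p = 0.779) in Cre control bladders. Without normal replicate 2 the mutant value became -0.54 (adjusted p = 0.135). Btg2 and Ddb2 were also called in mutants, with log2 differences of -1.27 (adjusted p = 0.00927) and -0.70 (adjusted p = 0.0130). The Btg2 call ended without normal replicate 2 (adjusted p = 0.0834) or 3 (0.0796), and the Ddb2 call without normal replicate 3 (0.0773). Xpc was called in Cre control bladders (-0.75, adjusted p = 0.0178), but not without Krt5-Cre replicate 2 (0.0628) or normal replicate 2 (0.0670). The Xpc call there also ended with the mean over its probes. That a target passed in 1 kind and not in another does not show a difference between the kinds, which the next comparisons test directly.

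The targeted gene comes first among the comparisons between genotypes. Trp53 had levels of -1.46, -0.44 and -0.48 in Krt5-Cre R270H, 1.21, -1.31, -0.60 and -0.61 in Krt5-Cre R172H, -0.70 and -1.29 in Upk2-Cre R270H and 0.01, -1.63 and 0.94 in Upk2-Cre R172H. It had -0.42, 1.62 and 0.84 in Trp53 het, -0.08 and 0.80 in Krt5-Cre, 0.70 and 1.58 in Upk2-Cre, and -1.05, -1.08 and -1.23 in normal bladders. Mutants differed from Cre controls by -1.33 (adjusted p = 0.488), with overlapping arrays. The probe does not tell a point-mutant allele from a wild-type one, so these levels do not check the genotype labels.

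The next comparison asked whether target genes under BBN differed between bladders with an activated Trp53 missense allele and Cre controls. The Cre controls had no Trp53 mutation listed, so carrying the allele and activating it cannot be told apart here. Between mutant bladders and Cre controls limma called 0 of the 34 targets and 0% of all genes. At an unadjusted p under 0.05 there were 3 targets and 1367 genes. The interval of the difference lay within 1 log2 unit of 0 for 22 of the 34 targets, and for the other 12 a 2-fold difference in at least 1 direction lay within the interval. The median difference over the targets was -0.06.

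Apaf1 had the smallest p. Its levels were -2.62 to -1.29 with a median of -2.14 on mutant arrays, against -2.75, -3.01, -2.88 and -3.58 on Cre control arrays. All 12 mutant arrays lay above all 4 Cre control arrays, with a difference of 0.88 (95% interval 0.39 to 1.38, adjusted p = 0.335). The Apaf1 probe was well above background on 2 of the 4 Cre control arrays. The 2 tested Apaf1 probes gave different calls in BBN against normal bladders. How many of all genes separate the compared arrays without overlap was not counted, here or in the comparisons below. Sesn1, at 0.88 to 1.80 with a median of 1.2 on mutant arrays, against 1.69, 1.77, 2.31 and 1.67 on Cre control arrays, lay below all Cre controls on 11 of 12 mutant arrays (difference -0.61, 95% interval -1.03 to -0.19, adjusted p = 0.427).

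Eda2r differed by 1.33 (95% interval 0.15 to 2.50, adjusted p = 0.582). Its probe was well above background on 11 of 12 mutant and 2 of 4 Cre control arrays, so the size of this difference rests partly on background. The 2 Cre control arrays not above background were those of scanner model G2505C, where the difference was 2.44, and among the arrays of model G2600D it was 0.07. Plk3 differed by -0.76 (adjusted p = 0.657). By role, 10 of 15 apoptosis genes had a difference above 0 (median 0.09) and 10 of 11 growth genes one below 0 (median -0.27), none of them called, where 45.3% of all genes lay above 0 (median -0.04). Cell type markers also differed in this comparison, with 0 called: all 14 basal and squamous markers (median -0.94) and 9 of 10 smooth muscle markers (-0.96) lay below 0, and all 9 fibroblast (1.02) and all 7 endothelial markers (1.29) above it. Their part in the target differences was not tested. Cdkn1a differed by -0.76 (adjusted p = 0.708) and Mdm2 by 0.14 between mutants and Cre controls. Of the regulators and further targets 0 were called.

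Within the basal driver, Krt5 mutants (7 arrays) against Krt5-Cre (2 arrays) gave 0 targets called, with 0.0115% of all genes called. At an unadjusted p under 0.05 there were 3 of 34 targets and 836 of 17404 genes. The median difference was -0.28 over the targets and 0.01 over all genes. Of the targets 11 were above 0 and 23 below, where 50.8% of all genes lay above 0. Btg2 had levels of 0.25, 1.91 and 0.96 in Krt5-Cre R270H and 1.41, 1.71, 1.01 and 1.06 in Krt5-Cre R172H, against 2.32 and 2.26 in Krt5-Cre. All 7 mutant arrays lay below both controls (difference -1.12, 95% interval -2.04 to -0.20, adjusted p = 0.943). Polk differed by -0.74 (adjusted p = 0.971) and Apaf1 by 0.76 (adjusted p = 0.993). All 10 smooth muscle markers (median -1.64) and 11 of 12 urothelial markers (-1.05) lay below 0 here and all 16 cell cycle genes above it (0.44), with 0 called, and their part was not tested.

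Within the luminal driver, Upk2 mutants (5 arrays) against Upk2-Cre (2 arrays) gave 0 targets called, with 0.00575% of all genes called. At an unadjusted p under 0.05 there were 7 of 34 targets and 1094 of 17404 genes. Apaf1 differed by 1.01 (adjusted p = 0.777), Sesn1 by -0.78 (adjusted p = 0.777), Polk by 0.72 (adjusted p = 0.785), Eda2r by 1.81 (adjusted p = 0.788) and Sesn2 by -0.72 (adjusted p = 0.788). The Eda2r probe was above background on 1 of the 2 Upk2-Cre arrays. The median over the targets was 0.03. All 9 fibroblast markers (median 2.0) and all 7 endothelial markers (1.87) lay above 0 in this comparison. All 14 basal and squamous markers (-1.31) and all 16 cell cycle genes (-0.51) lay below it. Of these genes and markers 0 were called, and their part was not tested.

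**Figure D5:**
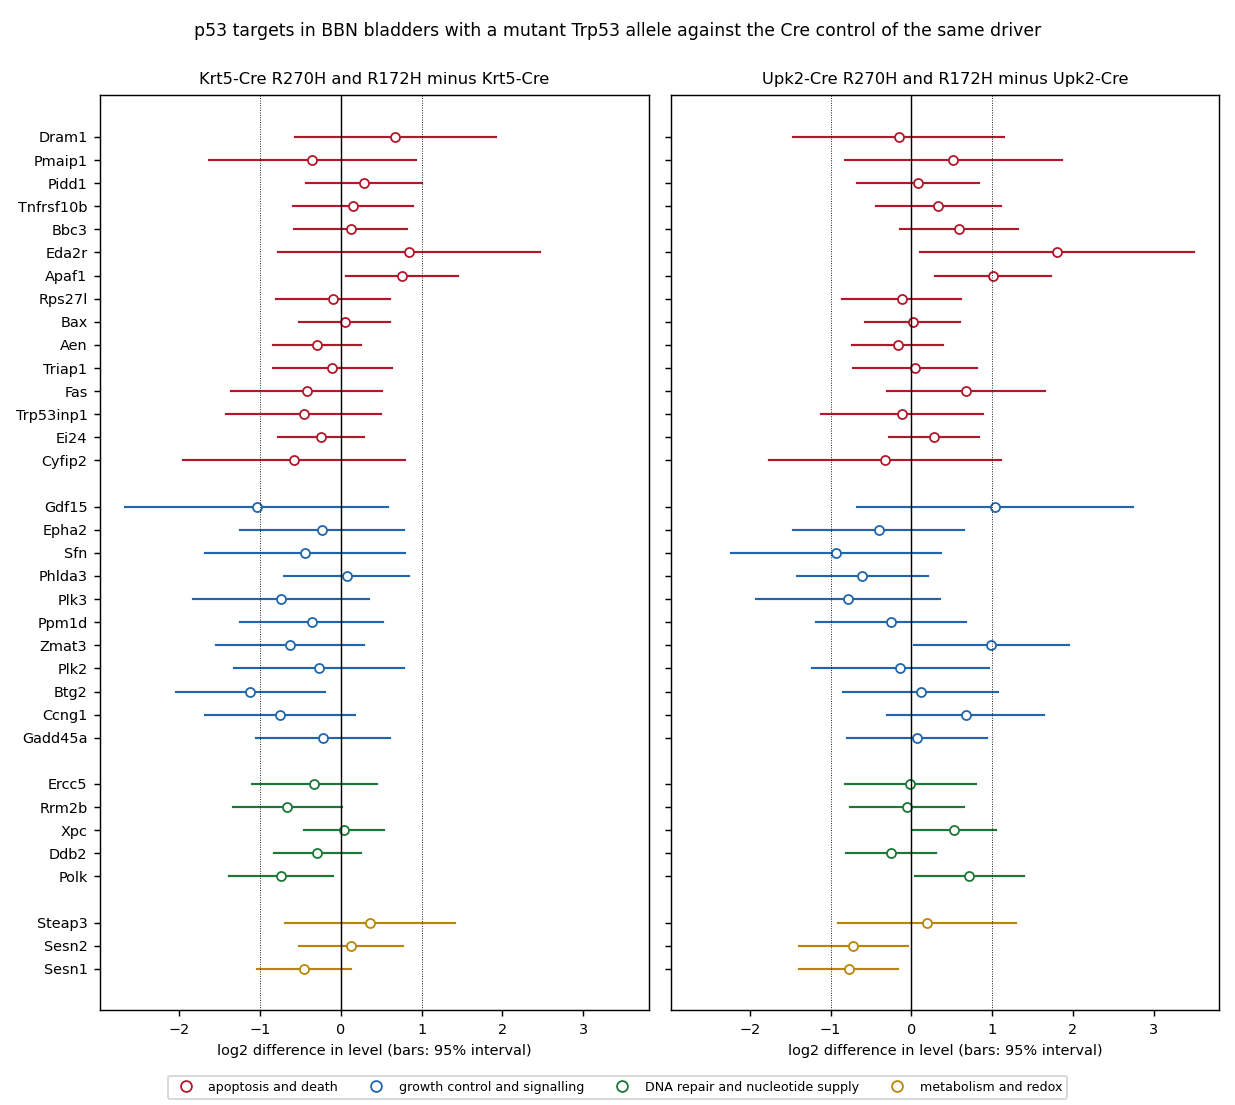
Log2 difference of mutant minus Cre control bladders for each of the 34 targets, for the Krt5 driver and the Upk2 driver, with the 95% interval from limma. No target was called under either driver, and the points of Gdf15 lie farthest apart between the drivers, with wide intervals.

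The driver difference, that is the Krt5 mutant effect less the Upk2 mutant effect, called 0 targets and 0% of all genes. At an unadjusted p under 0.05 there were 3 of 34 targets and 578 of 17404 genes. Polk had levels of -0.67, -1.15 and -0.37 in Krt5-Cre R270H and -1.02, -1.47, -1.37 and -1.03 in Krt5-Cre R172H, against -0.22 and -0.26 in Krt5-Cre. It had 0.01 and -0.47 in Upk2-Cre R270H and -1.21, -1.09 and 0.04 in Upk2-Cre R172H, against -0.96 and -1.46 in Upk2-Cre. All Polk values in the comparisons between genotypes and drivers come from its brightest probe. The 3 tested Polk probes gave different calls in BBN against normal bladders. The Krt5 mutant arrays all lay below their controls, while the Upk2 mutants overlapped theirs (driver difference -1.46, 95% interval -2.39 to -0.53, adjusted p = 0.998). Zmat3 (-1.62) and Ccng1 (-1.42) followed, and Gdf15 had the widest gap (-2.07, 95% interval -4.43 to 0.28). The interval lay within 1 log2 unit of 0 for 3 of the 34 targets, and for the others it included a difference of 2-fold or more in at least 1 direction. All 16 cell cycle genes (median 0.96) and 10 of 14 basal and squamous markers (0.54) lay above 0 in the driver difference. All 12 urothelial (-0.89), all 10 smooth muscle (-1.30), all 9 fibroblast (-1.64) and all 7 endothelial markers (-1.16) lay below it. Of these genes and markers 0 were called, and their part was not tested.

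Krt5 mutants set directly against Upk2 mutants gave 0 targets called, with 0.00575% of all genes called. At an unadjusted p under 0.05 there were 2 of 34 targets and 922 of 17404 genes. Zmat3 had levels of -0.50 to 1.52 with a median of 0.71 on the 7 Krt5 mutant arrays, against 0.77 to 2.48 with a median of 1.63 on the 5 Upk2 mutant arrays. The arrays overlapped, and the difference was -1.07 (95% interval -1.75 to -0.39, adjusted p = 0.886). Polk differed by -0.49. The interval lay within 1 log2 unit of 0 for 25 of the 34 targets. Of the markers, 11 of 12 urothelial (median -0.60), 8 of 9 fibroblast (-0.37) and 6 of 7 endothelial (-1.03) lay below 0. All 6 skeletal muscle (1.21), 10 of 14 basal and squamous (0.54) and 11 of 14 leukocyte markers (0.16) lay above it. Of these markers 0 were called, and their part was not tested.

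R270H alters a DNA-contact residue of p53 and R172H the fold of its DNA-binding domain. Between R270H and R172H bladders 0 targets and 0% of all genes were called, with 2 targets and 1708 genes at an unadjusted p under 0.05. Cyfip2 had levels of -1.41, -1.44 and -2.70 in Krt5-Cre R270H and -3.44 and -1.29 in Upk2-Cre R270H, against -4.11, -1.90, -2.42 and -3.54 in Krt5-Cre R172H and -3.06, -3.40 and -4.46 in Upk2-Cre R172H. The alleles overlapped, with a difference of 1.21 (95% interval 0.19 to 2.22, adjusted p = 0.405), and Polk differed by 0.51 (adjusted p = 0.471). The interval lay within 1 log2 unit of 0 for 27 of the 34 targets. All 10 smooth muscle (median 2.29), all 9 fibroblast (1.06) and all 7 endothelial markers (1.11) were above 0 in this comparison, with 0 called. All 5 R270H arrays were read by scanner model G2505C and 5 of the 7 R172H arrays by model G2600D, and the Upk2-Cre R270H and Upk2-Cre R172H arrays were on different slides. With scanner model as a block Cyfip2 differed by 1.38 and Polk by 0.60, with slide as a fixed block by 1.45 and 0.56, and 0 targets were called in either. The part of the markers was not tested.

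Trp53 het bladders against Cre controls gave 0 targets and 0% of all genes called, with 4 targets and 841 genes at an unadjusted p under 0.05. Bbc3, at 0.67, 1.46 and 1.22 in Trp53 het, against 0.21, 0.63, 0.09 and 0.31 in Cre controls, did not overlap (difference 0.81, 95% interval 0.14 to 1.47, adjusted p = 0.853). Apaf1 differed by 0.73, Sesn1 by -0.61 and Cyfip2 by -1.34, and all 10 smooth muscle markers lay below 0 (median -1.45, 0 called), whose part was not tested. Mutant against Trp53 het bladders gave 0 targets and 0% of all genes called, with 2 targets and 901 genes at an unadjusted p under 0.05. Phlda3, at 5.06 to 6.43 on mutant arrays, against 5.79, 6.67 and 7.0 on Trp53 het arrays, differed by -0.70 (95% interval -1.33 to -0.08, adjusted p = 0.912), with overlap, and Aen differed by -0.45. All 9 fibroblast (median 0.65) and all 7 endothelial markers (1.42) lay above 0, with 0 called, and their part was not tested. Trp53 het mice had neither Cre nor tamoxifen, while Cre controls and mutants had both. In both comparisons the Trp53 genotype therefore cannot be told apart from Cre and tamoxifen.

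The F test over all 7 BBN groups called 0 targets and 0% of all genes. Polk was the 1 target with an unadjusted p under 0.05 (adjusted p = 0.789), with 1095 genes. Across the 19 BBN arrays, in which group differences are included, the SD of a target's level had a median of 0.50, against 0.58 for all genes tested. Gdf15 (SD 1.08), Eda2r (1.08) and Cyfip2 (1.03) varied most, and Bax (0.26), Ei24 (0.27) and Xpc (0.27) least.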

How the data were processed

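The deposited scanner files hold spot intensities. Per the file headers, background was subtracted and spatial trends removed by Agilent's Feature Extraction software, version 11.0.1.1. Version 9.1 and limma, without a version, are named per the submitters' processing notes. The deposited table of log2 values, with the same highest value in every column, had been brought to a common distribution by the authors, as its values show, and served as an alternative.

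The log2 processed signal minus each array's 75th percentile was used. Flagged spots were left out, spots of a probe averaged, and the brightest probe kept for each symbol (RefSeq, GRCm38.p6). A gene was tested if well above background on at least 2 of 22 arrays. Group means (8) were fitted with limma (version 3.58.1, R 4.3.3), and 12 contrasts, with groups weighted alike within a side, and an F test were taken. It was tested on simulated data. Python 3.11.15 did the rest. The members, gene lists and tests were chosen with earlier results of these data known. Named are all called targets and, otherwise, those of smallest p.

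Alternatives were normexp background correction (offset 50), quantile normalization, the deposited table, 2 other filters, averaging the probes of a gene, fitting the compared arrays alone, array weights, sex covariates, averaging arrays of 1 animal code, blocks (replicate number, slide, scanner model) and leaving out each array. Each scanner model alone and the removal of BBN arrays that went against their sex label were added after seeing the data.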

Additional observations from a re-analysis of the deposited data

How the results depend on the processing

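Of the alternatives run for BBN against normal bladders, only array weights moved the count of targets called beyond 1.5 times, to 27 of 34 (13110 of all genes, against 7432), and leaving out 1 array in turn gave 11 to 18. The same weights gave 26 targets for mutant and 23 for Trp53 het against normal bladders. For mutant against normal bladders, leaving out 1 array gave 11 to 17. For Trp53 het against normal bladders the count was 7 with the sex label as a covariate, 5 with arrays of scanner model G2600D only, and 6 to 14 with 1 array left out. For Cre control against normal bladders it was 6 with the scanner model as a block, 6 without the BBN arrays that went against their sex label, and 5 to 14 with 1 array left out. The cause of these moves was not tested. Ppm1d, not called with its brightest probe, was called higher in BBN against normal bladders with the mean over its probes (0.76, adjusted p = 0.0400). Pmaip1, Pidd1, Ei24, Cyfip2, Dram1, Gadd45a, Phlda3, Gdf15 and Epha2 were called in BBN against normal bladders in every alternative run. The 8 comparisons between genotypes or drivers and the F test called 0 targets in every alternative run, although genes overall reached 199 for mutants against Cre controls with scanner model G2600D only, 280 for Krt5 mutants against Krt5-Cre with that model only, 134 for R270H against R172H without Krt5-Cre R270H replicate 3 and 114 for the F test with that model only. Quantile normalization set the median difference of all genes in BBN against normal bladders at -0.01, against 0.13. With the replicate number as a block, 17 targets and 7369 genes were called in BBN against normal bladders. The 66 pairs of arrays with the same number had a median correlation of 0.03, and the 144 pairs with different numbers one of -0.006. These medians do not settle whether the numbers pair the samples. Slide as a fixed block could not be fitted against normal bladders, and leaving out every array that went against its sex label would leave no normal array. The number of arrays, 2 to 4 in a group, limits the precision of every genotype comparison.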
